A study of Mus musculus with 2 samples.

Results

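Mir132 and Mir212 are a pair of microRNA (miRNA) genes that lie side by side on mouse chromosome 11 and are processed from 1 primary transcript. They were taken as the rows of the deposited miRNA tables whose gene identifiers carry those symbols in GENCODE M21, which gave 2 of 2202 listed miRNA genes. Small RNA libraries had been made from total RNA of left cerebral cortex, taken from male B6CASTF1/J mice (F1 offspring of B6 and CAST parents) at 10 days of age. It has 1 group of 2 libraries, labelled as biological replicates 1 and 2 and described as tissue of separate males, without treatment or other genotype. No conditions were compared, so the data describe how abundant the pair was and how far the libraries differed. Tissue was sequenced whole, so expression in fewer cells and a lower level in every cell cannot be told apart.

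A primary miRNA transcript is trimmed in the nucleus to a hairpin, which is then cut to a short duplex, and 1 strand of the duplex guides the silencing complex to messenger RNAs that match its seed. In neurons, transcription of the miR-132 and miR-212 locus is driven by the transcription factor CREB after synaptic activity or neurotrophin signalling. miR-132 is known for promoting dendrite growth and spine formation, and it accumulates in the postnatal forebrain.

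Both hairpins lay on the plus strand in intron 1 of the noncoding host gene 1700016P03Rik, whose annotated transcript runs from chr11:75172560-75177633 (mm10, GENCODE M21). Mir212 (ENSMUSG00000065590.1) occupied chr11:75173388-75173478 and Mir132 (ENSMUSG00000065537.2) occupied chr11:75173682-75173747. A gap of 203 bases separated them, and no other annotated gene overlapped either hairpin. The host's exon 1 ended 790 bases before Mir212, and exon 2 began 230 bases after Mir132. The hairpins are shown 5′ to 3′ from RefSeq (GRCm38.p6) with the annotated mature arms in capitals, because each deposited count is the sum over 1 of these hairpins and not over 1 arm.
Mir212: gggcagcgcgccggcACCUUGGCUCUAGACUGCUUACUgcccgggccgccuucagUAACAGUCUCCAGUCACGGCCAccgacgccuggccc
Mir132: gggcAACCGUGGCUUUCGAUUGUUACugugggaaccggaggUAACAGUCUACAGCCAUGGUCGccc

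**Figure D1:**
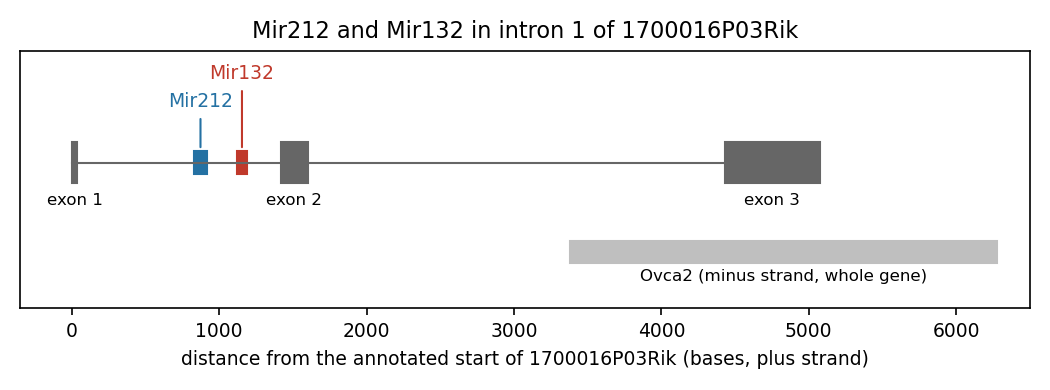
Map of the host gene 1700016P03Rik, with distance from its annotated start in bases on the x axis. Grey boxes are its 3 exons, coloured boxes are the hairpins, and the light grey bar is the neighbouring gene Ovca2 on the minus strand. Both hairpins sit between exon 1 and exon 2, Mir212 first.

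The 3′ arms are the strands for which the family is named, and they are shown with the seed, bases 2 to 8 from the 5′ end, in capitals.
miR-132-3p: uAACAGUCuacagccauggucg
miR-212-3p: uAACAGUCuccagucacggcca
miR-132-5p: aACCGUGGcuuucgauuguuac
miR-212-5p: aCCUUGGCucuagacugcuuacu
The seed of the 3′ arms was identical, and among 1738 mature arms of 1058 genes in the RefSeq table no other gene carried it. The first 9 bases of miR-132-3p and miR-212-3p matched, and 17 of 22 bases matched over the whole arm. Counted from the 5′ end, with the base of miR-132-3p first, the differences were A10C, C14U, U17C, U20C and G22A. The 5′ arms had different seeds, ACCGUGG in miR-132-5p and CCUUGGC in miR-212-5p, and each of these seeds occurred in 1 gene of the table.

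These sequences bear on how reads were assigned, since a read that maps to more than 1 place is counted for no gene. The longest stretch shared by the 2 hairpins was 10 bases. Neither shared 20 bases with another RefSeq hairpin, and neither shared 20 bases on either strand with any other gene among 141767 GENCODE transcripts. Introns and intergenic sequence were not searched. Mir212 was the longer hairpin, with 91 bases and 69.2% G and C, against 66 bases and 57.6% for Mir132. Among the 382 detected genes with a RefSeq hairpin, whose median was 51.8%, 9 had more G and C than Mir212 and 99 more than Mir132. The predicted folding energy per base was lower for Mir132 (-0.564 kcal/mol) than for Mir212 (-0.456 kcal/mol), and 24 and 143 of the 382 hairpins were more stable by this measure.

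Sense reads of listed miRNA genes numbered 2677910 (29.5% of 9089257) in replicate 1 and 1750076 (23.5% of 7432614) in replicate 2. The remaining reads were unmapped, mapped to several places or lay outside the listed genes, and unmapped reads made up 25.5% in replicate 1 and 42.4% in replicate 2. Levels are given as CPM, sense reads scaled to a common library total. A gene counted as detected where both libraries had at least 2 CPM, which held for 442 of the 2202. As a check of the tissue, 12 of 16 genes on a list of neuron-associated miRNAs were detected, led by Mir128-1, Mir137, Mir128-2 and Mir138-1. The undetected genes were Mir124a-1, Mir124a-2, Mir124a-3 and Mir9-2, which belong to families whose copies give the same mature strand.

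Mir132 was among the abundant miRNA genes of the left cortex, and its level differed between the libraries. It had 10406 sense reads in replicate 1 and 16138 in replicate 2. These reads corresponded to 3886 CPM in replicate 1 (95% Wilson interval 3812 to 3961) against 9221 CPM in replicate 2 (9081 to 9364), so the counting intervals did not overlap. The mean was 6554 ± 3773 CPM (SD, n = 2), a coefficient of variation of 57.6%. Mir132 ranked 49 in replicate 1, 23 in replicate 2 and 33 by its mean among 2202 genes, above 92.5% of detected genes. Reads with several mapping places, 38.2% of replicate 1 and 28.3% of replicate 2 whatever their origin, count for no gene. Genes with near-identical copies may therefore rank too low beside Mir132, and likewise beside Mir212.

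Mir212 was a gene of middling abundance, and its levels in the libraries lay close together. It had 499 sense reads in replicate 1 and 363 in replicate 2. The levels were 186 CPM (95% Wilson interval 171 to 203) and 207 CPM (187 to 230), with intervals that overlapped. The mean was 197 ± 14.9 CPM (SD, n = 2), a coefficient of variation of 7.57%. Mir212 ranked 193 in replicate 1 and 181 in replicate 2, and its mean lay above 57.0% of detected genes.

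Counts were the same with and without regard to strand, and neither gene had an antisense read in either library, where 3 reads would correspond to 1.12 CPM in replicate 1 and 1.71 CPM in replicate 2. Together the hairpins took 0.407% (95% Wilson interval 0.400 to 0.415) of the assigned reads of replicate 1. In replicate 2 they took 0.943% (0.929 to 0.957). The mean was 0.675% ± 0.379 (SD, n = 2). Intervals cover counting error within 1 library only. PCR copies of 1 molecule are counted as separate reads, so the intervals may be too narrow even for that.

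**Figure D2:**
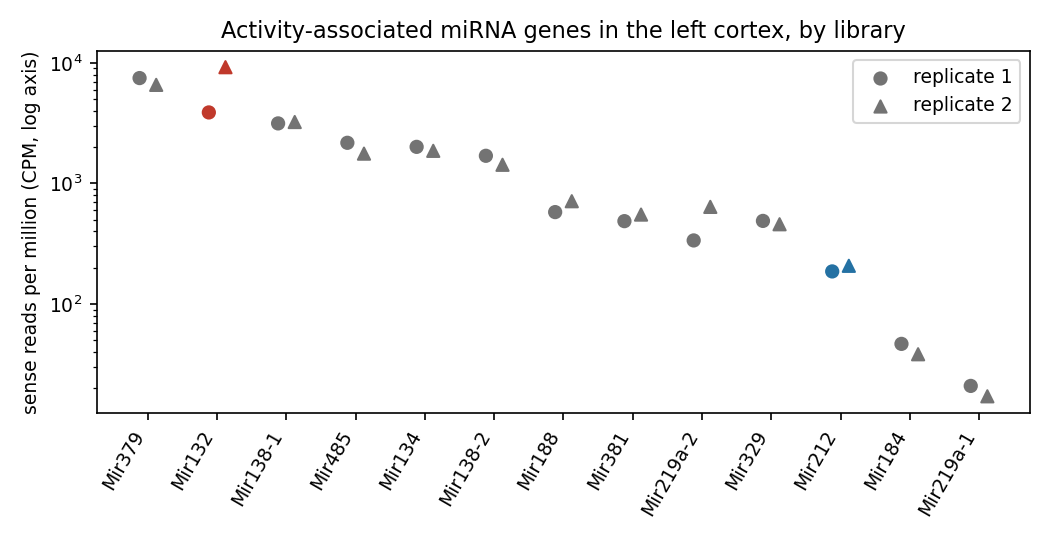
CPM on a log axis of the 13 activity-associated miRNA genes, ordered by mean, with circles for replicate 1 and triangles for replicate 2. Mir132 (red) stands second with its libraries at 3886 and 9221 CPM, and Mir212 (blue) stands near the lower end at 186 and 207 CPM.

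In the order of levels, the genes next above Mir132 were Mir181b-2 at 6797 ± 319 CPM and Mir379 at 7036 ± 646 CPM (SD, n = 2). Next below were Mir342 at 6206 ± 1305 CPM and Mir370 at 6089 ± 3364 CPM. None of these neighbours differed from Mir132 beyond the summed SDs, but they were chosen for nearness in mean, so this was not a test. The range spanned by the libraries of Mir132 overlapped that of 32 other detected genes, while 21 detected genes lay above it in both libraries and 388 below it.

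Around Mir212, Mir129-1 at 197 ± 57.2 CPM and Mir29c at 197 ± 42.4 CPM stood next above, and Mir193b at 196 ± 46.0 CPM and Mir495 at 193 ± 2.99 CPM next below (SD, n = 2). These too lay within the summed SDs, having been chosen in the same way. Among the neighbours in level, Mir181b-2, Mir129-1 and Mir29c share 20 bases with another hairpin, so their counts leave out reads that map to both copies. The range of Mir212 overlapped that of 26 other detected genes, with 173 above it and 242 below it.

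Within each library the hairpins of this transcript were counted unequally, with Mir132 far above Mir212. A small RNA read spans a whole mature strand, so the counts were not divided by hairpin length. Mir132 had 20.9 reads for each read of Mir212 in replicate 1 (95% exact interval 19.1 to 22.9) and 44.5 in replicate 2 (40.1 to 49.5). Mir212 supplied 4.58% of the reads of the locus in replicate 1 and 2.20% in replicate 2. How efficiently each small RNA entered the libraries was not measured, so the ratio is one of reads and not of molecules.

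The ratio of the hairpins changed between the libraries, a comparison that needs no library total. Mir132 over Mir212 was 2.13-fold higher in replicate 2 (log2 1.09, 95% exact interval 0.89 to 1.29; Fisher's exact test, two-sided, p = 1.64e-27). This p concerns the 2 libraries, not conditions, and takes account of counting error only.

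Set against all genes, Mir132 differed between the libraries and Mir212 was not called. Fisher's exact test set the reads of a gene against all other assigned reads, for the genes that had at least 2 CPM in one of the libraries. A gene was called where its adjusted p (Benjamini-Hochberg) was under 0.05 and its CPM differed by at least 2-fold, that is by log2 1. By this rule 65 of 542 genes (12.0%) were called, 31 (5.72%) higher and 34 (6.27%) lower in replicate 2, and with no minimum on the ratio 229 (42.3%) were. Mir132 was 2.37-fold higher in replicate 2, a log2 ratio of 1.25 (95% exact interval 1.21 to 1.28), and was called, with a p too small for the software to hold. Mir212 had a log2 ratio of 0.16 (-0.04 to 0.35; Fisher's exact test, adjusted p = 0.224). With all reads of a file as the total, which lowered the median log2 ratio of all tested genes by 0.32, the ratio of Mir132 was 0.92 and missed the minimum, and that of Mir212 was -0.17.

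A difference of the size seen for Mir132 was uncommon among abundant genes. Of the 105 genes averaging at least 1000 CPM, 5 had a larger log2 ratio in size, 4 of them higher and 1 lower in replicate 2. Over all 542 tested genes, 110 (20.3%) had a larger one. For Mir212, 426 of the 542 tested genes had a larger log2 ratio in size.

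**Figure D3:**
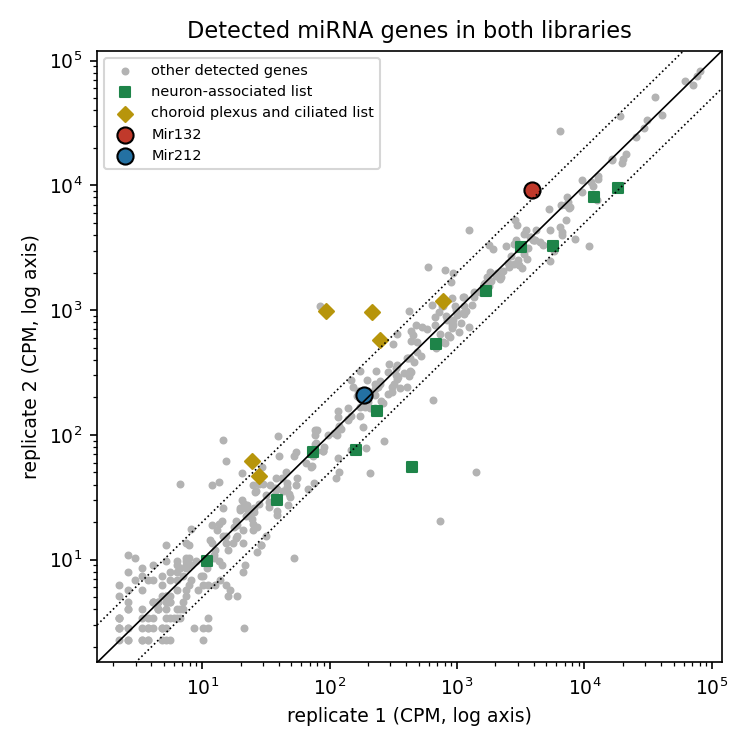
CPM of the 442 detected miRNA genes in replicate 1 (x) and replicate 2 (y), both on log axes, with the line of equality and dotted lines at 2-fold. Mir132 (red) lies above the upper dotted line at 3886 and 9221 CPM, Mir212 (blue) lies near equality, most neuron-associated genes (green squares) lie below equality, and the choroid plexus and ciliated genes (yellow diamonds) lie above it.

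Among 13 listed activity-associated genes, all tested, Mir132 was the 1 gene called higher in replicate 2 and 0 were called lower. Over all tested genes 5.72% were called higher and 6.27% lower, so a count of 1 in 13 does not set the list apart. At an adjusted p under 0.05 without the minimum ratio, Mir134, Mir379, Mir381, Mir485, Mir188, Mir138-2 and Mir219a-2 also differed, in both directions. By that rule 229 of all 542 tested genes (42.3%) differed, and the list was not tested against that share. The median log2 ratio of the list was -0.09, or -0.11 without Mir132 and Mir212, and that of all tested genes was -0.09.

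Several of these genes come from the imprinted cluster on chromosome 12 that the activity-dependent factor MEF2 is known to drive. Mir379 had 7493 CPM in replicate 1 and 6579 in replicate 2 (log2 ratio -0.19). Mir134, which acts on the spine regulator Limk1, had 2013 and 1866 CPM (-0.11). Mir485, a regulator of the synaptic vesicle protein SV2A, had 2176 and 1768 CPM (-0.30). Mir329 had 489 and 459 CPM (-0.09), and Mir381 had 487 and 552 CPM (0.18). All 5 had log2 ratios within 0.30 of 0 in size, and none came near the ratio of Mir132.

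The remaining activity-associated genes lie at other loci. Mir138-1 and Mir138-2, copies that give a miRNA acting on dendritic spine size, had log2 ratios of 0.04 and -0.25. Mir188, which is raised by long-term potentiation, had 579 and 713 CPM (0.30), and Mir184 had 46.7 and 38.3 CPM (-0.28). Mir219a-1 had 20.9 and 17.1 CPM (-0.28). Mir219a-2, whose miRNA is known both with miR-132 in the circadian clock and as an oligodendrocyte miRNA, had 337 and 639 CPM (0.92), the ratio closest to that of Mir132 in this list. Mir138-1, Mir138-2, Mir219a-1 and Mir219a-2 each share 20 bases with another hairpin, so their counts leave out reads that map to both copies.

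Ratios of 2 genes within a library do not depend on its total. Those of Mir132 share its reads, so they restate its own difference beside that of each other gene and are not separate results. Over all 542 tested genes, 54 had a higher log2 ratio than Mir132 and 189 a higher one than Mir212. Mir132 was compared with every other detected gene of 8 lists, and so was Mir212, with Fisher's exact tests adjusted over the 91 pairs. Against each of the 12 other activity-associated genes, Mir132 was relatively higher in replicate 2 (adjusted p under 0.05 in 12 of 12), by log2 0.32 for Mir219a-2 (Fisher's exact test, adjusted p = 3.11e-06) and by 0.95 to 1.55 for the others. Mir212 was relatively higher against 5 of the 12 and lower against 2, which were Mir132 and Mir219a-2.

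The ratios of Mir132 to the neuron-associated miRNAs likewise restate its own difference beside theirs. Mir132 was relatively higher in replicate 2 against all 12 detected genes of that list by the same test, and Mir212 against 8 of 12. Of all 542 tested genes, 54 had a higher log2 ratio than Mir132 and 189 a higher one than Mir212. Mir138-1 and Mir138-2 stand on the activity-associated list too, so their comparisons repeat those given above. Mir132 over Mir128-1, a miRNA of maturing neurons, was 0.213 in replicate 1 and 0.970 in replicate 2. Mir132 over Mir137, a miRNA of synaptic genes and neuronal maturation, was 0.329 and 1.14. Mir128-1 itself had 18242 CPM in replicate 1 and 9510 in replicate 2, Mir137 had 11808 and 8069, Mir128-2 had 5629 and 3293, and Mir138-1 had 3151 and 3235. Of the 16 genes of the list, all tested, 0 were called higher and 2 lower, and the median log2 ratio was -0.57. Over all tested genes 5.72% were called higher and 6.27% lower, 12.0% in either direction, so this count does not set the list apart. The summed share of the list was 4.22% in replicate 1 and 2.65% in replicate 2. In this list 11 of the 16 genes were found to share 20 bases with another hairpin, among them Mir128-1 and Mir128-2 but not Mir137. Their counts, and so the median and the share, leave out reads that map to both copies. Mir124a-1, Mir124a-2 and Mir124a-3 had no RefSeq hairpin under these symbols, so sharing was not searched for them. Reads with several mapping places, whatever their origin, took 38.2% of the replicate 1 library and 28.3% of the replicate 2 library. How many of them belonged to this list is not known.

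**Figure D4:**
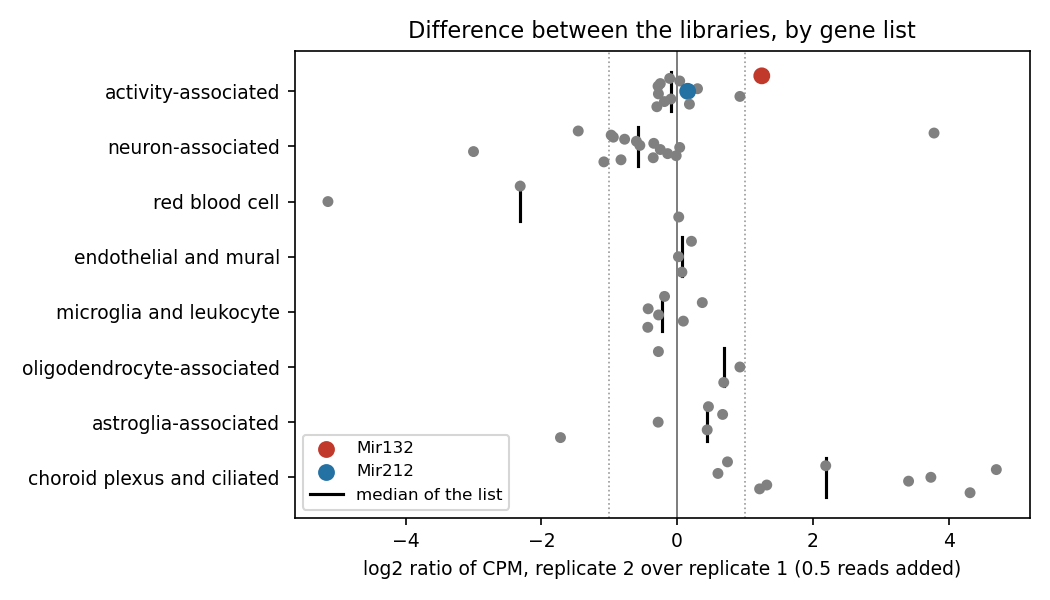
Log2 ratio of CPM, replicate 2 over replicate 1, for each tested gene (point) of 8 lists (rows), with the median of each list as a black bar and dotted lines at 1 in size. Mir132 (red) lies at 1.25, to the right of every other activity-associated gene, and Mir212 (blue) at 0.16.

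Genes tied to other cell types differed between the libraries as well, and their part in the result for Mir132 was not tested. Of 10 genes of a choroid plexus and ciliated cell list, 9 were tested, 7 were called higher in replicate 2 and 0 lower, where 5.72% of all tested genes were called higher, and the median log2 ratio was 2.19. The summed share of the list was 0.139% in replicate 1 and 0.385% in replicate 2. It was led by Mir204 at 775 and 1176 CPM, Mir1298 at 213 and 973 CPM, Mir34c at 93.4 and 993 CPM and Mir449a at 249 and 578 CPM. Mir449c and Mir1912 had 0 reads in replicate 1 and Mir449b had 0 in replicate 2. Against the 6 detected genes of this list, Mir132 was relatively higher in replicate 2 for 2 and lower for 2, and Mir212 was lower for all 6. These counts restate the differences of the genes compared and are not separate results. Among the 542 tested genes, 54 had a higher log2 ratio than Mir132 and 189 a higher one than Mir212.

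Of 3 red blood cell genes, 2 went the other way. Mir451a (1973 and 36 reads) and Mir144 (140 and 18 reads) were called lower in replicate 2, where 6.27% of all tested genes were. Mir486 (68 and 45 reads) had 25.4 and 25.7 CPM, a log2 ratio of 0.02. The median log2 ratio of the list was -2.31. Its sum was 0.0814% in replicate 1 and 0.00566% in replicate 2.

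Oligodendrocyte-associated genes (3 tested, 0 called) had a median log2 ratio of 0.69 and summed to 0.0834% and 0.142%. Mir338 had 476 and 766 CPM, beside the Mir219a copies given above. Astroglia-associated genes (5 tested, 0 called higher and 1 lower) had a median of 0.44 but summed to 1.19% and 0.484%, since Mir99b, with 10801 and 3283 CPM, was called lower. Mir29a in that list had 907 and 1249 CPM, Mir29c had 167 and 227 CPM and Mir29b-2 had 45.9 and 37.7 CPM. Mir29c and Mir29b-2 share 20 bases with another hairpin, so their counts too leave out reads that map to both copies. Over all tested genes 5.72% were called higher and 6.27% lower, so 0 in 3 and 1 in 5 do not set these lists apart.

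Endothelial and mural genes (3 tested, 0 called) had a median of 0.07 and summed to 1.36% and 1.52%, with Mir126a at 9622 and 11137 CPM, Mir143 at 3821 and 3872 CPM and Mir145a at 195 and 205 CPM. Microglia and leukocyte genes (6 tested, 0 called) had a median of -0.23 and summed to 0.884% and 0.695%, with Mir342 at 7129 and 5283 CPM, Mir146 at 676 and 874 CPM, Mir150 at 844 and 628 CPM and Mir142 at 91.1 and 80.0 CPM. Mir146 shares 20 bases with another hairpin, so its count leaves out reads that map to both copies. With 12.0% of all tested genes called in either direction, 0 called among 3 or 6 genes does not set either list apart. Mir132 was relatively higher in replicate 2 than every detected gene of the 5 lists from red blood cell to microglia and leukocyte, by the adjusted Fisher's exact test. This restates the difference of Mir132 itself, and 54 of all 542 tested genes had a higher log2 ratio.

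The unequal and shifting counts of Mir132 and Mir212 were set beside those of other hairpins that neighbour each other on 1 strand. Among 87 such pairs within 5 kb of each other, both detected, the fold of the higher over the lower hairpin was 32.7 on average over the libraries for Mir132 and Mir212, which ranked 19, and the median of the other 86 was 8.14. The change of that fold between libraries, log2 1.09, ranked 14 in size, and 13 of the other 86 pairs (15.1%) changed at least as much. The median change of the others was 0.37 in size. Of the other pairs, 33 hold a hairpin that shares 20 bases with another. Among the 43 others for which RefSeq hairpins showed no such sharing, 5 had a change at least as large.

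The largest changes were those of Mir298 over Mir296 (1.19-fold in replicate 1 and 11.1-fold in replicate 2), Mir451a over Mir144 (14.1-fold and 2.00-fold) and Mir487b over Mir539 (71.8-fold and 399-fold). Next above Mir132 and Mir212 in size of change stood Mir23b over Mir27b (17.5-fold and 7.85-fold) and Mir501 over Mir362 (14.3-fold and 32.8-fold). Next below stood Mir1193 over Mir679 (2.20-fold and 1.04-fold) and Mir221 over Mir222 (3.00-fold and 1.48-fold). Neighbouring hairpins with a more than 2-fold shift in their ratio were thus found at other loci too.

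**Figure D5:**
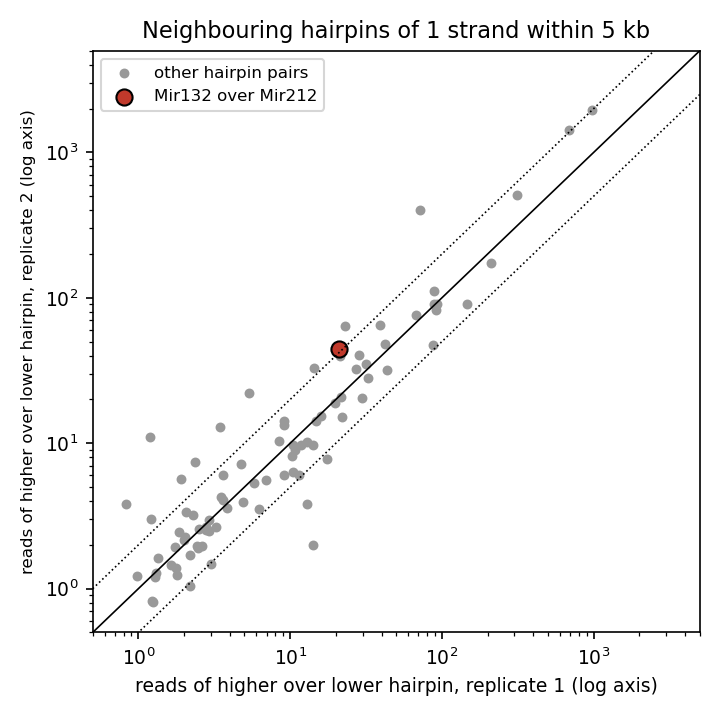
Reads of the higher over the lower hairpin of 87 neighbouring pairs in replicate 1 (x) and replicate 2 (y), on log axes, with the line of equality and dotted lines at 2-fold. Mir132 over Mir212 (red) lies just above the upper dotted line, at 20.9 and 44.5.

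The genes most like each member were taken as the 5 detected genes nearest in log2 mean CPM and log2 ratio together, over the 2 libraries. For Mir132 they were Mir674 (2830 CPM in replicate 1 and 5298 in replicate 2), Mir22 (2972 and 4839 CPM), Mir760 (5297 and 6421 CPM), Mir411 (7296 and 8050 CPM) and Mir181b-2 (6572 and 7022 CPM). Their distances ran from 0.77 to 1.15 log2 units, so no gene matched Mir132 closely. For Mir212 the distances were smaller, 0.09 to 0.25. The genes were Mir145a, Mir495 (191 and 195 CPM), Mir340 (196 and 199 CPM), Mir873a (165 and 205 CPM) and Mir30c-2 (227 and 235 CPM). Mir411, Mir181b-2 and Mir30c-2 each share 20 bases with another hairpin, so their counts leave out reads that map to both copies.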

How the data were processed

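Each library was deposited by the authors as 1 table of raw read counts per miRNA gene, on assembly mm10 with GENCODE M21 (per the text file that accompanies each sample), from inserts in a size range below 30 per the labels. For the aligner, the counter and any trimming, names were not given in the sources used here. The 3 count columns were read from their values as unstranded, sense and antisense, and the sense column was used. The 4 rows that name no gene held 70.5% and 76.5% of reads in replicates 1 and 2 and were left out of totals. All 2202 identifiers matched GENCODE M21.

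Sense counts were divided by their sum. For log2 ratios (replicate 2 over replicate 1), 0.5 was added to each count. With 1 library per animal no model could be fitted to the difference, so Fisher's exact test was used, two-sided, with Benjamini-Hochberg adjustment over 542 genes. Alternative totals came from edgeR 4.0.16 (TMM) and DESeq2 1.42.0 in R 4.3.3, and other steps used Python 3.11.15, scipy 1.17.1 and ViennaRNA 2.7.2. Labels give 1 strain-level donor entry, and p-values set differences between these 2 libraries against counting error only.

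The members, the 8 gene lists and the rules were chosen with earlier results of these data known. Named were the members, all activity-associated genes, up to 4 leading genes of each other list, the neighbours in level, the 5 nearest genes per member, and pairs of hairpins by their change of ratio. Undetected genes and those with 0 reads were named after their values were seen.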

Additional observations from a re-analysis of the deposited data

How the results depend on the processing

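Of 56 alternative settings tried on the results for Mir132, Mir212 and their lists, 49 kept a tested result's direction and call, moved an untested value by less than the spread between the libraries or its counting interval, or kept a count within 1.5 times. With all reads of a file as the total, mean levels were 1658 CPM for Mir132, 51.9 CPM for Mir212 and 0.171% for the locus, the log2 ratio of Mir132 was 0.92 and no longer called, that of Mir212 was -0.17, and 15 of 373 tested genes were called higher and 47 lower in replicate 2, against 31 and 34 of 542. The 2 CPM minimum left fewer genes to test under that total, and the assigned share of reads was 29.5% in replicate 1 and 23.5% in replicate 2. With TMM or DESeq2 totals the ratio of Mir132 was 1.30 and 1.31 and that of Mir212 was 0.21 and 0.22. The count of called genes was 116 with a minimum log2 ratio of 0.5 and 229 with none, against 65. Leaving out 1 replicate gave 3886 to 9221 CPM for Mir132, 186 to 207 CPM for Mir212, 0.407% to 0.943% for the locus and 20.9 to 44.5 for the ratio of Mir132 to Mir212, each range being the libraries themselves. Leaving out 1 of the libraries moves a mean by less than their SD whatever the values. These settings, counted among the 49, could therefore not have come out otherwise. Lowering or dropping the minimum log2 ratio could likewise not undo the call of Mir132. A filter on low counts does not alter a gene's log2 ratio. The ratio of Mir132 to Mir212 and its change do not depend on the total. Both are also fixed under the unstranded column, where the counts of both genes equal the sense counts. With 363 and 499 reads, counting error in Mir212 limits the precision of the ratio more than that in Mir132.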

Other observations

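The abundant genes with a larger difference than Mir132 were named after their values were seen. Among genes averaging at least 1000 CPM, Mir298 (6378 CPM in replicate 1 and 27444 in replicate 2), Mir222 (595 and 2238 CPM), Mir107 (1242 and 4404 CPM) and Mir21a (808 and 2106 CPM) had larger log2 ratios in the direction of Mir132, and Mir99b had a larger one in the opposite direction.

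Mir22, the second nearest gene to Mir132 by level and ratio, also lies near it, 290 kb downstream on the plus strand of chromosome 11 at 75463716 to 75463810. It had 7958 and 8469 reads, a log2 ratio of 0.70. Of 4 other listed miRNA genes within 1 Mb of the locus, Mir22 was the 1 detected gene. Mir6926 had 2 and 6 reads, and the other two, Gm47300 and Mir3971, had 0 reads in both libraries. This nearness was noticed after the values were seen and was not tested.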
